A study of Canis lupus familiaris with 4 samples.

Results

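The genes described here are the antigens used to sort mammary cancer stem-like cells and other markers that are commonly used to recognise such cells. Of 10 listed genes (EPCAM, CD44, CD24, PROM1, THY1, ALDH1A1, ALDH1A3, SOX2, KLF4 and BMI1), 9 had non-control probes under their symbol on the array, 15 probes in all among the 43603 probes of the design. CD24 had 0 probes by that rule. RNA came from 2 cell lines of dog mammary cancer, P114 and CMT-U27, which are 1 line each, so a difference between them is a difference between those lines and not between kinds of tumour. Cells positive for Sca1, EpCAM and CD44 made up 0.02 to 0.05% of either line, and these sorted cells were then held until day 3 in either of 2 conditions. In the co-culture group they shared the culture with tumour-associated macrophages, and in the single-culture group they were alone. Whether macrophages were removed before RNA extraction, and how they were kept apart, is not given in the sources used here.

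Each of 4 arrays, with 2 per line, carried the co-cultured cells of a line in Cy3 or Cy5 and the same line in single culture in the other dye. The co-culture channel was Cy3 on P114 replicate 1 and CMT-U27 replicate 2, and Cy5 on P114 replicate 2 and CMT-U27 replicate 1. Directions below follow the dye named for each channel. The titles name only the culture of the first channel, which is Cy3 in P114 and Cy5 in CMT-U27, and an error in that order within a line would turn the sign of all its ratios. Replicate numbers follow the order of the records and pair nothing. The arrays are named biological replicates, but separate RNA extracts are not stated, so the p-values measure the spread between these arrays, which may be technical. Spots well above background made up 89.4% and 91.7% of the Cy3 and Cy5 channels of P114 replicate 1, against 57.9% to 65.7% elsewhere, and 0 spots were saturated. Over all tested probes the ratios of the P114 arrays correlated at -0.15 and those of the CMT-U27 arrays at 0.05 (Pearson's r across probes).

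As background, EpCAM is an adhesion molecule of epithelial cells and CD44 is a receptor for the matrix polymer hyaluronan. Cells with much CD44 and little CD24, a mucin-like surface protein, were an early definition of tumour-initiating cells in human breast cancer. PROM1 (CD133) and THY1 (CD90) are surface proteins used in the same way in several tissues. ALDH1A1 and ALDH1A3 oxidise retinaldehyde to retinoic acid and underlie the enzyme activity by which stem-like cells are often selected. SOX2 and KLF4 are transcription factors of pluripotent cells, and BMI1 is a subunit of a Polycomb repressor complex that sustains self-renewal. The sort acted on proteins at the start of the culture, whereas the arrays measured RNA at its end, and RNA of Sca1 is not described here.

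The probe sequences below show the stretch of transcript that each printed probe reads. A single probe is shown for each gene except CD44, of which both probes are shown. The other probes of EPCAM, THY1, SOX2 and BMI1 were left out because they may lie in untranslated regions. The first values given below for these genes (EPCAM probe 1, THY1 probe 2, SOX2 probe 1 and BMI1 probe 1) therefore rest on probes not printed. Where a gene has several probes they are numbered by brightness, and each probe has 60 bases, written 5′ to 3′ as in the scanner files.
EPCAM probe 3: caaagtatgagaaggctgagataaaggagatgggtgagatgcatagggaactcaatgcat
CD44 probe 1: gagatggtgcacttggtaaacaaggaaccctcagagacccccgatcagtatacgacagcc
CD44 probe 2: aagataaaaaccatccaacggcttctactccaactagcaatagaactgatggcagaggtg
PROM1: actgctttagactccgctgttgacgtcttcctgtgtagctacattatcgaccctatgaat
THY1 probe 1: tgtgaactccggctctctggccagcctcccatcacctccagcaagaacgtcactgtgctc
ALDH1A1: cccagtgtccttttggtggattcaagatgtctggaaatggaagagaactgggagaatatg
ALDH1A3: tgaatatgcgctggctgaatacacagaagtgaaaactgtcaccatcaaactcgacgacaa
SOX2 probe 2: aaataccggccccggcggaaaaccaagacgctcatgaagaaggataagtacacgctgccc
KLF4: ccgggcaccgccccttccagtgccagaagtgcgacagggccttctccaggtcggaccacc
BMI1 probe 2: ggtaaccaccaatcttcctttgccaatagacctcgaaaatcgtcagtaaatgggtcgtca
On the CanFam3.1 assembly named in the file headers, EPCAM probe 3 (A_11_P090096) lies at chr10:49496484-49498291 on the + strand, CD44 probe 1 (A_11_P0000021548) at chr18:32738444-32738503 and CD44 probe 2 (A_11_P0000019506) at chr18:32754560-32755500, both on the - strand. PROM1 (A_11_P0000032125) lies at chr3:64356244-64360837 (+), THY1 probe 1 (A_11_P0000032568) at chr5:14507031-14507090 (+), ALDH1A1 (A_11_P111461) at chr1:84989469-84994185 (+) and ALDH1A3 (A_11_P109051) at chr3:40132851-40132910 (-). SOX2 probe 2 (A_11_P064811) lies at chr34:14853399-14853458 (+), KLF4 (A_11_P0000026261) at chr11:62882796-62882855 (-) and BMI1 probe 2 (A_11_P0000030756) at chr2:10820203-10820262 (-). The probes of EPCAM, CD44 (probe 2), PROM1 and ALDH1A1 are placed over 1808, 941, 4594 and 4717 bases, more than their own length, so the files place them across at least 1 intron. Exon numbers and the reading frame were not used here.

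The question of the study's design is how co-culture with macrophages moves gene expression in the sorted cells, and in these markers no such change passed the test in either line. Ratios are given as log2 of co-culture over single culture on the same array, and a call is an adjusted p under 0.05 in limma after Benjamini-Hochberg adjustment over 28692 tested probes. In P114 0 of 28692 probes were called (0%; 1758 at an unadjusted p under 0.05), and in CMT-U27 0 (0%; 928 unadjusted). The 15 marker probes therefore stand against a background of 0% in both lines, with 0 of them called in P114 and 0 in CMT-U27. In P114 5 of the 15 were above 0 and 10 below, with a median log2 ratio of -0.08 against 0.01 over all tested probes, and in CMT-U27 12 were above and 3 below, with a median of 0.06 against 0.02. Of the 15, 9 had the same sign on both P114 arrays and 12 on both CMT-U27 arrays. The lack of calls depends on the normalization. With median centring of arrays in place of loess, 17343 of the 28692 probes were called in CMT-U27 and 5 in P114. Those in CMT-U27 included all probes of EPCAM, CD44, THY1, SOX2 and BMI1 and those of ALDH1A3 and KLF4. In fits without a dye term, 64 of all probes were called in P114 without its replicate 2 and 17 in CMT-U27 without its replicate 1, and 0 marker ratios were called in any fit with an array left out.

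The level of a marker is the log2 intensity of a channel after normalization, compared between lines for the same probe only. The lines never shared an array, so line and array differ together, and the comparison rests on 2 arrays per line. By this measure EPCAM, SOX2 and ALDH1A3 were higher in CMT-U27 than in P114 in both cultures, THY1 was higher by 1 of its 2 probes, and ALDH1A1 was higher in single culture. In single culture 8 of the 15 marker probes were called higher in CMT-U27 and 0 lower, beside 8.24% of all tested probes higher and 6.97% lower. In co-culture 7 were called higher and 0 lower, beside 8.83% and 6.62%. The median difference of the 15 probes was 0.64 in single culture and 0.49 in co-culture, against 0.03 and 0.04 over all tested probes. The probe of ALDH1A1, that of ALDH1A3 and THY1 probe 2 passed the filter on dim probes only through CMT-U27, so the counts are a description and not support for a shift of the set. Where these probes were well above background in P114, it was on replicate 1 only, where 89.4% and 91.7% of all Cy3 and Cy5 spots were so. Without CMT-U27 replicate 1 the marker probes called higher numbered 1 in single culture and 2 in co-culture, and without CMT-U27 replicate 2 they numbered 2 in each. In bulk RNA a smaller share of cells expressing a gene and less RNA per cell cannot be told apart.

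**Figure D1:**
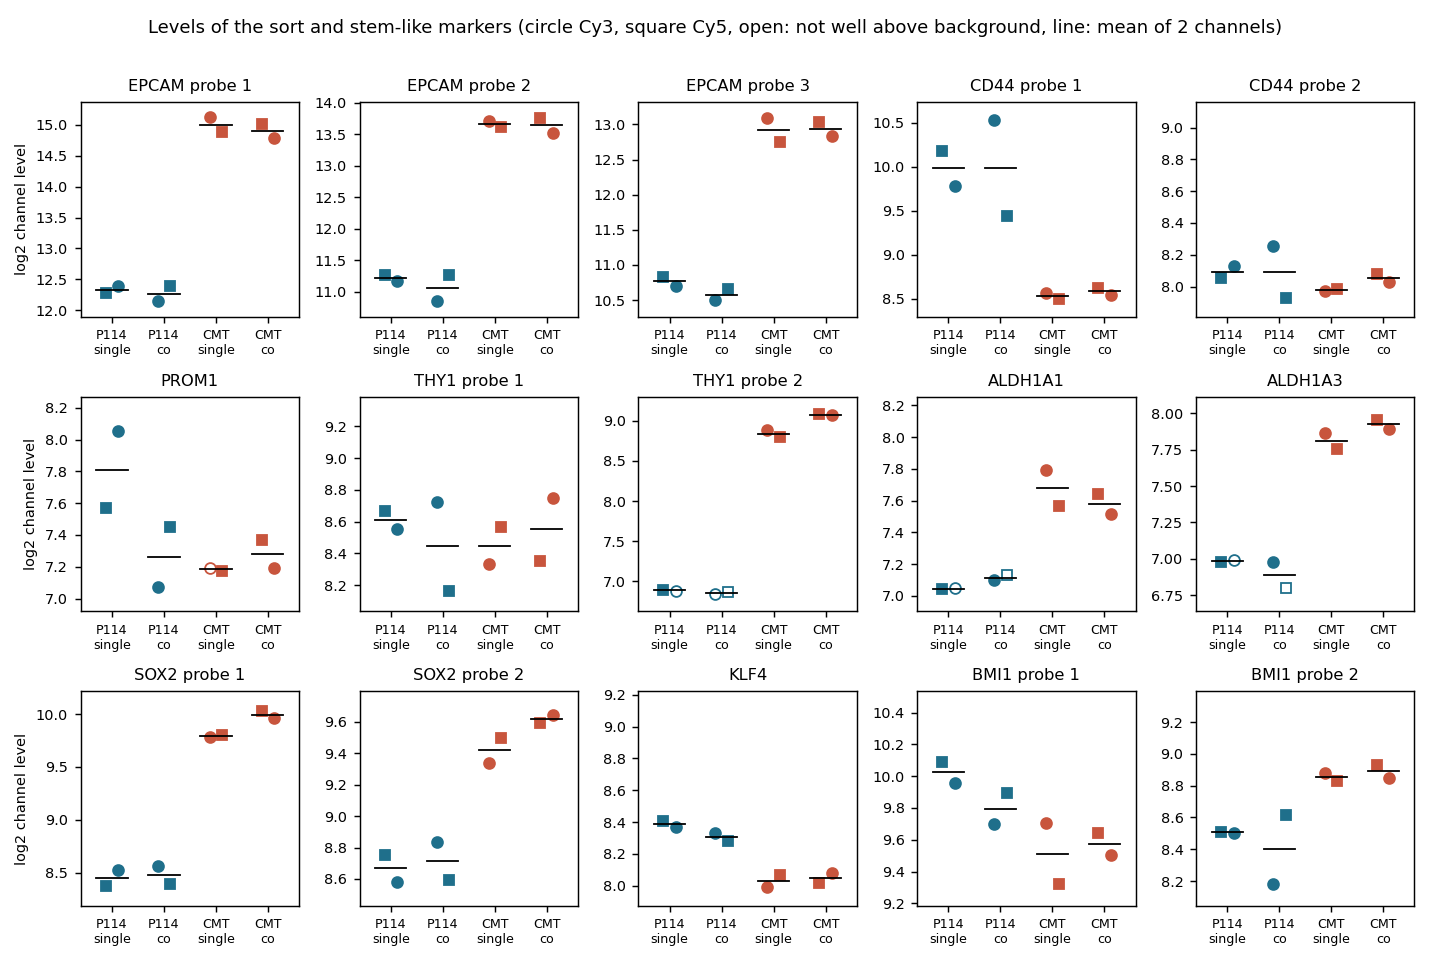
Normalized log2 level of each of the 15 marker probes in the 8 channels, with P114 in blue, CMT-U27 in red, Cy3 as circles, Cy5 as squares, open symbols where the spot was not well above background, and lines for the mean of 2 channels. Each panel has its own vertical axis, and levels of different probes are not comparable. All CMT-U27 channels lie above all P114 channels for EPCAM, THY1 probe 2, ALDH1A1, ALDH1A3, SOX2 and BMI1 probe 2. For CD44 probe 1 and KLF4 they all lie below. The share of all tested probes that separate in this way was not counted.

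EPCAM, the epithelial adhesion molecule on which the cells were sorted, had the largest difference between the lines among the markers. By probe 1 (A_11_P195733, chr10:49498590-49498649) its log2 level in single culture was 15.12 and 14.88 in CMT-U27 and 12.27 and 12.40 in P114. In co-culture the values were 15.01 and 14.78 in CMT-U27 and 12.15 and 12.39 in P114. All 4 channels of CMT-U27 were above all 4 of P114. The difference in single culture was 2.66 (95% confidence interval 2.25 to 3.08), or 6.34-fold, with a limma adjusted p of 0.000741, and in co-culture it was 2.62 (2.21 to 3.03), or 6.14-fold, with an adjusted p of 0.000740. Probe 2 (A_11_P0000014730, chr10:49498402-49498461) gave 5.42-fold in single culture (difference 2.44, interval 1.82 to 3.06, adjusted p = 0.00312) and a co-culture difference of 2.59, and probe 3 gave 4.44-fold (2.15, interval 1.42 to 2.88, adjusted p = 0.00814) and 5.11-fold. Probes 2 and 3 lost their single-culture calls without CMT-U27 replicate 1 (adjusted p = 0.210 and 0.146) or replicate 2 (0.191 and 0.102), whereas probe 1 kept its call in those fits. Median centring of each channel, in place of loess and of the quantile step between arrays, ended the call of all EPCAM probes. It lowered the single-culture difference of probe 1 to 1.43. With quantile normalization of all channels and no loess, probe 2 kept its single-culture call (2.43, limma adjusted p = 0.00296).

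Co-culture ratios of EPCAM were small. In P114 the log2 ratios of probe 1 were -0.12 and -0.003 and in CMT-U27 -0.11 on both arrays. Probe 2 stood at -0.41 and 0.09 in P114, on opposite sides of 0, and probe 3 at -0.34 and -0.04. In CMT-U27 probes 2 and 3 had mean ratios of -0.01 ± 0.10 and 0.01 ± 0.10 (SD, n = 2 arrays). For probe 1 the 95% confidence interval of the ratio was -0.25 to 0.12 in P114 and -0.29 to 0.08 in CMT-U27, so a doubling or halving lay outside it under this normalization. With median centring of arrays in place of loess the same probes in CMT-U27 all stood above 0 and were called, the highest at 1.495, while the median of all tested probes moved to 0.68 there and to 0.16 in P114.

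CD44, the hyaluronan receptor and the other member of the list used in the sort, had a mean level in P114 above that in CMT-U27 by probe 1, and the difference was not called. In single culture its probe 1 stood at 10.19 and 9.79 in P114 and at 8.57 and 8.50 in CMT-U27. In co-culture it stood at 10.53 and 9.45 in P114 and at 8.63 and 8.55 in CMT-U27. The lines did not overlap, but the P114 channels were widely spread. The difference, CMT-U27 minus P114, was -1.45 in single culture (interval -2.64 to -0.25, adjusted p = 0.110), or 2.73-fold lower, and -1.40 in co-culture (adjusted p = 0.119). It passed the test without a dye term (adjusted p = 0.00765 in single culture). Fits with either P114 array left out hold 1 P114 array and no dye term. The spread between the P114 arrays does not enter them, so they cannot decide whether the difference exceeds it. Over the 11 alternatives the single-culture difference lay between -1.96 and -1.27. Probe 2, which lies upstream of probe 1 on the - strand, gave a single-culture difference of -0.11 (interval -0.86 to 0.63, adjusted p = 0.849), and the probes thus gave different sizes.

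The P114 ratios of CD44 changed sign with the array. Probe 1 stood at 0.35 on replicate 1 and -0.34 on replicate 2, and probe 2 at 0.21 and -0.20, so that on both arrays the Cy3 channel was the brighter one after normalization. Their means were 0.0045 ± 0.49 and 0.0014 ± 0.29 (SD, n = 2 arrays). The dye-swapped pair therefore gives no direction for CD44 in P114. In CMT-U27 probe 1 stood at 0.05 on both arrays and probe 2 at 0.10 and 0.05, with intervals from -0.35 to 0.45 and from -0.22 to 0.37.

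The genes whose levels followed the sort antigens most closely over the 8 channels were taken from 9509 other genes measured in all channels. For EPCAM they were FBXO22, an F-box protein gene, with a Pearson r of 0.9987, CDO1, which encodes a cysteine-degrading enzyme, with 0.9985, and IRX2, a homeobox gene, with 0.9984. For CD44 they were TFE3, a transcription factor gene, with 0.9963, DNAAF1, a dynein assembly factor gene, with 0.9955 and LRRC46 with 0.9949. These values describe 8 channels that share 4 arrays and 2 lines, so any gene that differs between the lines can score highly. CDO1 differed between the lines by 4.65 in single culture and FBXO22 by 0.93, while TFE3 differed by -0.95 (adjusted p = 0.159).

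CD24 itself was not measured under its symbol. A single probe (A_11_P152533, chr2:70339326-70339385) is annotated as a transcript cluster with partial similarity to the mouse CD24 protein, and it was neither counted among the markers nor tested. In either culture its spot exceeded background clearly on 1 of the 2 P114 arrays and on 0 of the 2 CMT-U27 arrays. That P114 array was replicate 1, where 89.4% and 91.7% of all Cy3 and Cy5 spots were well above background. The lines can therefore not be compared by this count. Its log2 ratios were -0.09 and -0.18 in P114 and -0.02 and 0.02 in CMT-U27. The classic pair of CD44 and CD24 can therefore not be described at the RNA level here.

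PROM1, the surface protein CD133, had the largest co-culture ratio of the markers. Its log2 ratio in P114 was -0.50 on replicate 1 and -0.60 on replicate 2, a mean of -0.55 ± 0.07 (SD, n = 2 arrays), or 1.46-fold lower. In CMT-U27 it was 0.18 and 0.02. The P114 arrays thus lay below 0 and the CMT-U27 arrays at or above it, with no overlap. How many of all tested probes separate in this way over 2 arrays per line was not counted. The interval in P114 was -0.77 to -0.33 with an unadjusted p of 0.00259, but the adjusted p in limma was 0.797 and the ratio was not called. The difference in ratio between the lines was 0.65 (interval 0.34 to 0.96, adjusted p = 1.00), and 0 of 28692 probes (0%) were called in that comparison, against 821 at an unadjusted p under 0.05. With the dye order of P114 turned the difference would be -0.45, and with that of CMT-U27 turned 0.45. In the 10 alternative settings that could be run the P114 ratio lay between -1.19 and -0.50 and was called in 0 of them. The CMT-U27 ratio lay between -0.01 and 0.96 in those settings, also with 0 calls.

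The PROM1 signal was low. In P114 the log2 level was 7.57 and 8.05 in single culture and 7.07 and 7.45 in co-culture, and the co-culture channels lay below the single-culture channels. In CMT-U27 it was 7.19 and 7.17 in single culture, where the spot was well above background on 1 of 2 arrays, and 7.37 and 7.19 in co-culture. The level difference between the lines was -0.63 in single culture (interval -1.21 to -0.04, adjusted p = 0.147) and 0.02 in co-culture (interval -0.56 to 0.60). Without background correction the single-culture difference was -1.15 and was called (adjusted p = 0.0244), as it was with quantile normalization (-0.82, adjusted p = 0.0227) and without a dye term (adjusted p = 0.0211).

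**Figure D2:**
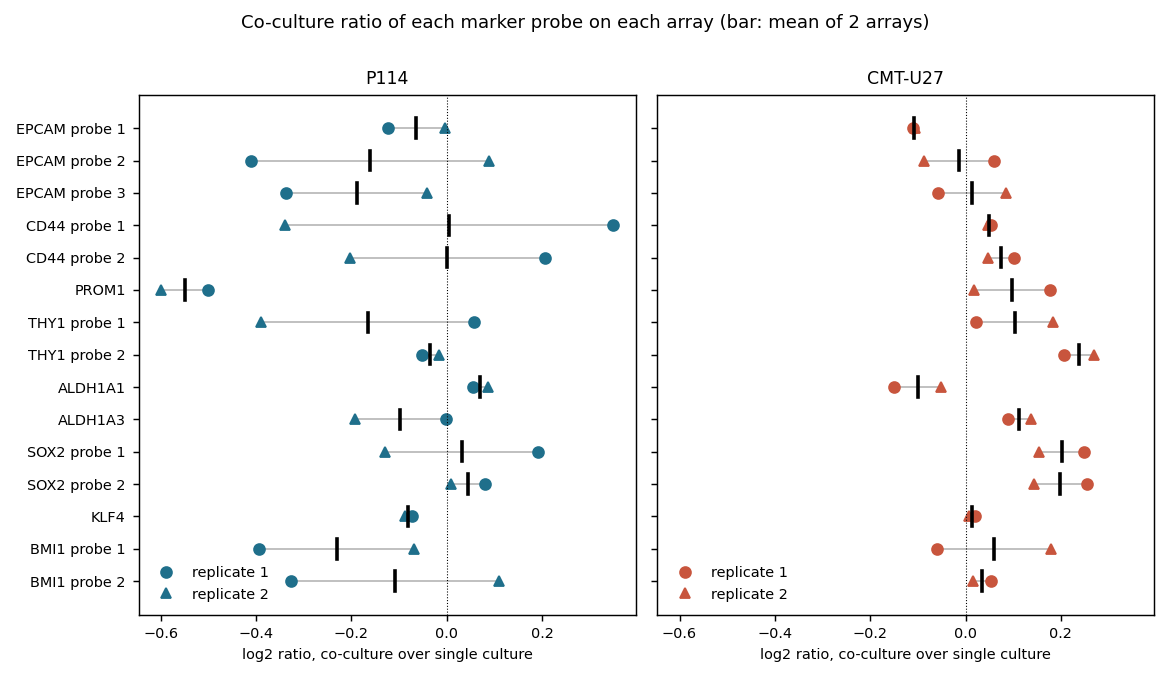
Log2 ratio of co-culture over single culture for the 15 marker probes on each array, P114 on the left and CMT-U27 on the right, with circles for replicate 1, triangles for replicate 2 and a bar at their mean. PROM1 lies at -0.50 and -0.60 in P114, whereas both CD44 probes lie on opposite sides of 0 on the P114 arrays.

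THY1, the surface glycoprotein CD90, gave different pictures by its probes. By probe 2 (A_11_P0000038736, chr5:14508877-14508936) its level in single culture was 8.88 and 8.80 in CMT-U27 and 6.89 and 6.88 in P114, where the spot was well above background on 1 of 2 arrays. The difference was 1.96 (interval 1.62 to 2.29), or 3.88-fold, with an adjusted p of 0.000967. In co-culture the levels were 9.09 and 9.07 in CMT-U27 and 6.84 and 6.86 in P114, not well above background on either P114 array, and CMT-U27 was at least 4.56-fold higher (adjusted p = 0.000676). That bound sets the mean of CMT-U27 against, on each P114 array, the higher of the probe's own signal and the lowest signal of any probe well above background. The single-culture call ended without CMT-U27 replicate 1 (adjusted p = 0.0604), and both calls ended with median centring of channels (0.683 and 0.238).

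By probe 1 the lines overlapped. Its level in single culture was 8.33 and 8.56 in CMT-U27 and 8.67 and 8.55 in P114, a difference of -0.16 (interval -0.78 to 0.45, adjusted p = 0.723). The interval leaves out the size given by probe 2. The co-culture ratios of probe 2 in CMT-U27 were 0.21 and 0.27, a mean of 0.24 ± 0.04 (SD, n = 2 arrays; interval 0.06 to 0.42; unadjusted p = 0.0229, adjusted p = 1), and those of probe 1 were 0.02 and 0.18. In P114 probe 1 stood at 0.06 and -0.39, on opposite sides of 0.

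The retinaldehyde-oxidising enzymes were dim in both lines. ALDH1A3, the form most often tied to the activity assay in breast tumours, stood at 7.87 and 7.75 in single culture of CMT-U27 and at 6.98 and 6.99 in P114, where it was well above background on 1 of 2 arrays in each culture. The difference of 0.82 (interval 0.45 to 1.20), or 1.77-fold, had an adjusted p of 0.0208, and in co-culture it was 1.03 (0.66 to 1.41), with an adjusted p of 0.0100. On P114 replicate 2 the co-culture spot had a signal of 38.9 against a background of 39, so that difference rests in part on a spot at background. No channel overlapped between the lines. Both calls ended without CMT-U27 replicate 1 (adjusted p = 0.484 and 0.344) or replicate 2 (0.384 and 0.279). The log2 ratios of ALDH1A3 were -0.001 and -0.19 in P114 and 0.09 and 0.14 in CMT-U27.

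ALDH1A1 stood at 7.79 and 7.57 in single culture of CMT-U27 and at 7.04 and 7.05 in P114, with a spot well above background on 1 of the 2 arrays of P114. Its single-culture difference was 0.64 (interval 0.26 to 1.01), or 1.55-fold, with an adjusted p of 0.0455. In co-culture the levels were 7.64 and 7.52 against 7.10 and 7.13, and the difference of 0.46 (0.09 to 0.84) was not called (adjusted p = 0.106). The single-culture call ended when any of the 4 arrays was left out, with adjusted p between 0.105 and 0.583, and without the filter on dim probes (0.0584). Its log2 ratios were 0.06 and 0.09 in P114 and -0.15 and -0.05 in CMT-U27, and the difference in ratio between the lines was -0.17 (interval -0.44 to 0.09).

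Among the regulators, SOX2 was higher in CMT-U27 by both probes. By probe 1 (A_11_P138811, chr34:14855029-14855088) its level in single culture was 9.78 and 9.80 in CMT-U27 and 8.37 and 8.53 in P114, and in co-culture 10.03 and 9.96 against 8.56 and 8.40. The differences were 1.35 (interval 0.67 to 2.02), or 2.54-fold, and 1.52 (0.84 to 2.19), or 2.86-fold, with adjusted p of 0.0276 and 0.0189. By probe 2 they were 0.75 (adjusted p = 0.0425) and 0.91 (adjusted p = 0.0241). The channels of the lines did not overlap for either probe. The single-culture calls of both probes ended without CMT-U27 replicate 1 (0.318 and 0.356) or replicate 2 (0.307 and 0.476) and without the filter on dim probes (0.0618 and 0.0657). That of probe 2 ended also without P114 replicate 1 (0.0651) or replicate 2 (0.109), without background correction (0.0543) and with median centring of each channel (0.990).

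The co-culture ratios of SOX2 in CMT-U27 were above 0 on both arrays by both probes, at 0.25 and 0.15 by probe 1 and at 0.25 and 0.14 by probe 2. Their means were 0.20 ± 0.07 and 0.20 ± 0.08 (SD, n = 2 arrays), and neither was called (adjusted p = 1 for both). In P114 probe 1 stood at 0.19 and -0.13 and probe 2 at 0.08 and 0.01.

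KLF4, a zinc finger transcription factor, differed little between replicates. Its level in single culture was 8.41 and 8.37 in P114 and 7.99 and 8.07 in CMT-U27, without overlap, and the difference of -0.35 (interval -0.66 to -0.05) was not called (adjusted p = 0.125). It was called without a dye term (adjusted p = 0.0255). In co-culture the difference was -0.26 (interval -0.57 to 0.05). Its ratios were -0.07 and -0.09 in P114 and 0.02 and 0.01 in CMT-U27.

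BMI1, the Polycomb subunit, differed in sign by probe. Probe 1 (A_11_P139561, chr2:10819310-10819369) had a single-culture level of 10.09 and 9.96 in P114 and 9.70 and 9.32 in CMT-U27, a difference of -0.51 (interval -1.41 to 0.39, adjusted p = 0.419). Probe 2 stood at 8.51 and 8.50 in P114 and at 8.88 and 8.83 in CMT-U27, a difference of 0.35 (interval -0.33 to 1.02, adjusted p = 0.468). Neither was called, and the probes give no common direction. The P114 ratios were -0.39 and -0.07 by probe 1 and -0.33 and 0.11 by probe 2, and those in CMT-U27 lay between -0.06 and 0.18.

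**Figure D3:**
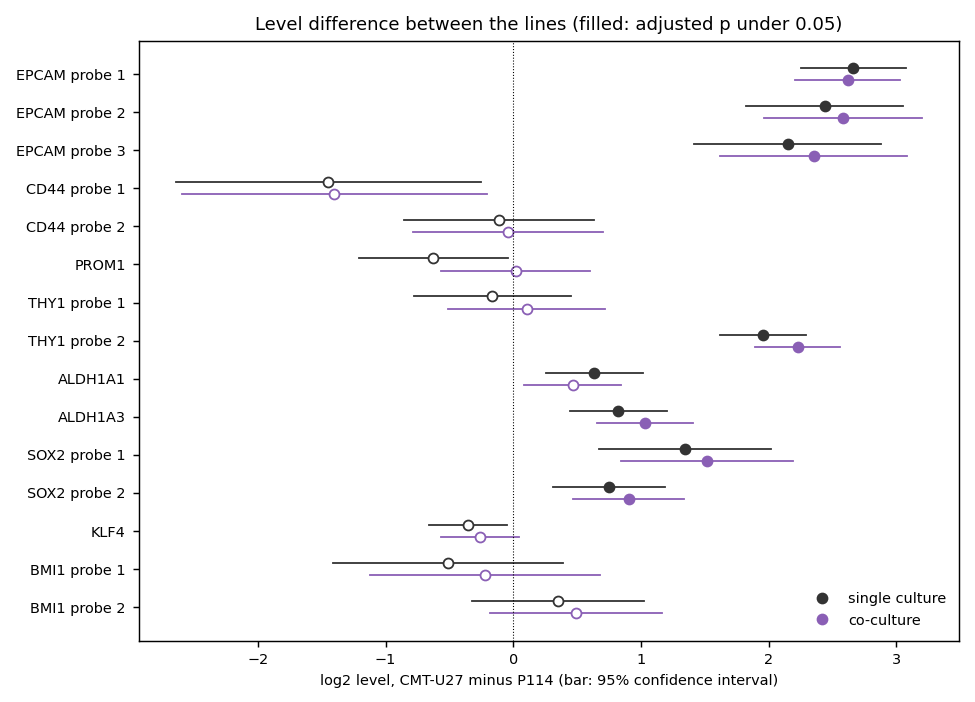
Log2 level difference, CMT-U27 minus P114, of the 15 marker probes in single culture (black) and co-culture (purple), with 95% confidence intervals from the separate-channel fit and filled points at an adjusted p under 0.05. The 3 EPCAM probes lie between 2.15 and 2.66, and CD44, PROM1, THY1 probe 1, KLF4 and BMI1 have open points in both cultures. ALDH1A1 has an open point in co-culture only.

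The response to co-culture was also compared between the lines for the whole list. Of the 15 probes, 13 had a ratio in CMT-U27 above that in P114, with a median difference of 0.15 against 0.01 over all tested probes. This count rests on the dye order named for each line, and would be 6 of 15 with P114 turned and 9 with CMT-U27 turned. With 0% of all tested probes and 0 of the 15 called in this comparison, and 2 at an unadjusted p under 0.05 (PROM1 and THY1 probe 2), no difference in the response to co-culture passed the test. In fits without a dye term 61 of all probes were called without P114 replicate 2, and leaving out CMT-U27 replicate 1 gave 8.

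**Figure D4:**
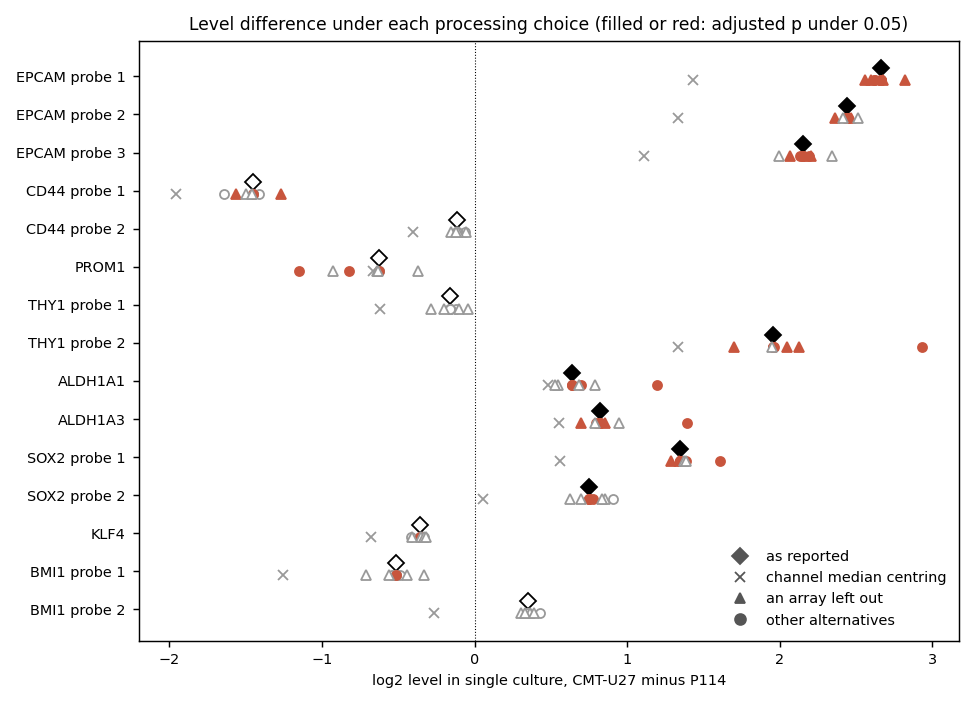
Single-culture level difference, CMT-U27 minus P114, of the 15 marker probes as reported (diamonds) and under each alternative (crosses for median centring of channels, triangles for fits without an array, circles for the others), red or filled at an adjusted p under 0.05. EPCAM probe 1 kept its call in 10 of 11 alternatives, whereas ALDH1A1 kept it in 4 of 10.

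Other genes of the same pathways were taken from a list of 62, and 45 of the 56 with a probe on the array were tested, each by its brightest probe. In the co-culture comparison 0 of the 45 were called in P114 and 0 in CMT-U27 (2 and 3 at an unadjusted p under 0.05). The largest mean ratios in P114 were those of MYC, a growth-promoting transcription factor, at -0.46 ± 0.20 (SD, n = 2 arrays), of ALCAM, an adhesion molecule, at -0.25 ± 0.08 and of HYAL2, a hyaluronidase, at 0.23 ± 0.08. In CMT-U27 they were those of HEY1, a Notch target, at 0.38 on both arrays (0.01 by its other probe), of ITGB3, an integrin chain, at 0.30 ± 0.10 (0.02 by its other probe) and of CXCR4, a chemokine receptor, at 0.26 ± 0.09.

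Between the lines in single culture 7 of these 45 genes were higher in CMT-U27 and 8 lower, beside 10% and 7.77% of 11213 tested genes, with a median difference of 0.13 against 0.04 over all genes. LY6E among the 7, and SPP1, HAS2 and CYP26B1 among the 8, passed the filter on dim probes only through the line where they were higher, so these counts are a description. The other tested probes of the genes named below, where they had any, had the same sign. ALDH2, the mitochondrial acetaldehyde dehydrogenase, had a mean level of 12.35 ± 0.13 in CMT-U27 and 7.73 ± 0.22 in P114 (SD, n = 2 arrays), a difference of 4.62 or 24.6-fold (adjusted p = 0.000192). ALDH3A1 was lower in CMT-U27, at 11.89 ± 0.07 against 14.70 ± 0.14, or 7.05-fold (adjusted p = 0.00375), and by its other probe it differed by -6.40 (adjusted p = 0.00132), with CMT-U27 well above background on 1 of 2 arrays. The aldehyde dehydrogenases thus differed in opposite directions. ALCAM was 25.7-fold lower in CMT-U27 (adjusted p = 0.00112), and ITGB1, the common beta chain of many integrins, 6.32-fold lower (adjusted p = 0.0346). SPP1, which encodes the CD44 ligand osteopontin, was well above background on both P114 arrays and on neither CMT-U27 array, and was at least 15.6-fold higher in P114 (adjusted p = 0.00302). CXCR4 was 4.77-fold higher in CMT-U27 (adjusted p = 0.00117), with P114 well above background on 1 of 2 arrays, and its other probe differed by 0.81. Leaving out CMT-U27 replicate 1 or 2 left 1 or 2 of the 7 higher and 1 of the 8 lower, and channel median centring left 0 of each.

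Markers of other cells were measured beside these genes. Of 16 macrophage markers 4 were tested, and their median ratio was 0.01 in P114 and 0.03 in CMT-U27. Their summed level was 1378 to 1566 in P114 co-culture and 1571 to 1601 in P114 single culture, and 1322 to 1494 in CMT-U27 co-culture and 1218 to 1428 in single culture. Of the 16, 10 were well above background on 0 of 2 CMT-U27 arrays in co-culture and 13 in single culture, among them CSF1R, ITGAM and MRC1 in both cultures. Those well above background on 1 of 2 CMT-U27 arrays numbered 4 in co-culture and 1 in single culture. C1QC, FCER1G and SPI1 were so on 1 array in co-culture and on 0 in single culture, and C1QB on 1 array in each. In P114 4 of the 16 were well above background on both arrays in either culture and the other 12 on 1 of 2. On P114 replicate 1, 89.4% and 91.7% of all spots were well above background in Cy3 and Cy5, so this count is not comparable with that of CMT-U27. Among the 4 tested, CD86, a ligand that co-stimulates T cells, passed the filter only through P114. It was well above background on both P114 arrays and on neither CMT-U27 array, and was at least 5.14-fold higher in P114 in single culture (adjusted p = 0.000484). Its ratio in P114 was -0.34 and -0.35 and was not called (adjusted p = 0.797, unadjusted 0.0058). The part of macrophage RNA in the marker values was not tested. Epithelial markers had a summed level of 12930 and 12800 in P114 co-culture and 15480 and 15000 in P114 single culture, so both co-culture channels were lower, and their median ratio in P114 was -0.20 with 2 of 7 above 0 and 0 called. In CMT-U27 the sums were 99600 and 89570 in co-culture and 88440 and 108300 in single culture, with a median ratio of 0.16 and 5 of 7 above 0. Of these markers 5 of 7 tested (KRT14, KRT18, KRT19, CLDN4 and ESRP1) were higher in CMT-U27 in single culture, with a median difference of 2.31. Without CMT-U27 replicate 1 or 2 these 5 calls became 2 or 1. Their part in the EPCAM difference and in the P114 ratios of EPCAM and PROM1 was not tested. Fibroblast markers had a summed level of 21420 to 22530 in P114 and 4017 to 5065 in CMT-U27, with COL1A2 6.94-fold lower in CMT-U27 (adjusted p = 0.000400) and 0 others of 8 called. Their part in the values of THY1, ALCAM and SPP1 was not tested. The 5 lymphocyte markers tested had 0 calls, and of 4 endothelial markers KDR was higher in CMT-U27 by 0.83.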

How the data were processed

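The deposited scanner files hold a linear intensity per spot and channel with its local background, written by Agilent Feature Extraction (version 10.10.1.1 per the file headers, 10.7.3.1 per the submitters' processing notes) on array design 021193. Their deposited log10 ratio, red over green after the software's own correction, served as an alternative, and the authors' series values equal those ratios. The labels' labelling protocol names a miRNA kit, although the probes carry gene names.

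Intensities were corrected by normexp (offset 50), normalized by loess within arrays with control spots at weight 0, and spots marked non-uniform or outlying were left out. Spots of a probe were averaged. A probe was tested if its spots stood well above background on the pair of arrays of any line and culture. This left 28692 probes, after 40 more were lost to a marked spot. All 4 arrays lay on 1 slide.

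With limma 3.58.1 in R 4.3.3, the model of the log2 ratios had 1 coefficient for each line and a dye term over the 4 arrays (1 residual and 2.77 prior degrees of freedom). Levels were fitted per channel after Aquantile with line and culture groups and a dye term (spot correlation 0.936, 3 residual and 2.70 prior degrees of freedom). Both fits were run on simulated data with changes larger than any marker ratio or marker level difference reported here. Changes of the reported sizes were not tried. The number of arrays limits the precision. Symbols came from the files, and all 10 marker symbols are in the RefSeq names used. Figures used Python 3.11.15 and matplotlib 3.10.9.

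The members, gene lists and tests were chosen with earlier results of these data known. By the naming rule all members were described, with the brightest probe first, then the 3 genes most like EPCAM and CD44, the 6 largest called differences among related genes and their 3 largest ratios per line. Alternatives changed the background correction, the normalization, the filter, the marked spots, the dye term and the arrays used.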

Additional observations from a re-analysis of the deposited data

How the results depend on the processing

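Loess removes trends with brightness. Median centring of arrays in its place for ratios, and of channels in place of both loess and Aquantile for levels, changed most counts. It gave 5 called ratios in P114, 17343 in CMT-U27 and 12448 for their difference, against 0 in each as reported, and 0 called levels in single culture and 30 in co-culture, against 4363 and 4434. With it 0 marker probes were higher in either culture (8 and 7 as reported), as were 0 related genes and 0 epithelial markers, and 0 related genes were lower. In CMT-U27 it called the ratios of most marker probes, but not those of PROM1 and ALDH1A1. Quantile normalization of all channels, also without loess, called 4658 levels in single culture and 4585 in co-culture. With that setting 8 and 7 marker probes were called higher in CMT-U27, and 1 and 0 lower. Without background correction 12 ratios were called in CMT-U27 and 1 for the difference, and with a filter on all 8 channels 1 in CMT-U27. Without a dye term 9384 levels in single culture and 9500 in co-culture were called, and 14 related genes were higher. Without the filter on dim probes 5 marker probes were higher in single culture, as with the filter on all 8 channels, which left 5 related genes lower.

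Leaving out each array in turn, in fits without a dye term and with the spot correlation of all arrays, called 0 to 64 ratios in P114, 0 to 17 in CMT-U27 and 0 to 61 for the difference. Levels called ranged from 312 to 3386 in single culture and from 295 to 3655 in co-culture, marker probes from 1 to 6 and from 2 to 7, and the lowest values came without a CMT-U27 array, when the lone array is assumed to vary like the others. Related genes higher ranged from 1 to 6, those lower from 1 to 8 and epithelial markers from 1 to 4. These 3 counts and the 6 related genes were added to the alternatives after seeing the data. The assumption on the lone array holds equally for fits without a P114 array, and why the counts differed by line was not tested.

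Level differences that were not called changed sign in 10 cases. CD44 probe 2 in co-culture stood at 0.0431 with median centring and between -0.187 and 0.124 over the fits that each leave out an array, with the positive value without P114 replicate 1. PROM1 in co-culture stood at -0.128 without background correction, -0.0615 with quantile normalization and -0.130 with median centring, and between -0.228 and 0.226 over the fits with an array left out, negative where P114 replicate 1 (-0.228) or CMT-U27 replicate 1 (-0.0729) was missing. THY1 probe 1 in co-culture stood between -0.155 and 0.390 over those fits, negative where replicate 2 of P114 (-0.155) or of CMT-U27 (-0.0995) was missing. BMI1 probe 2 in single culture stood at -0.268 with median centring. Of the other values for marker probes, 251 level differences kept direction and call, 47 lost and 14 gained a call. With the dye order of P114 turned, an alternative added after seeing the data, the PROM1 difference in ratio stood at -0.45. The causes were not tested. Where a spot was well above background on neither array of a group, as for THY1 probe 2 in P114 co-culture, only a bound could be given, and where it was so on 1 of 2 arrays, as for ALDH1A1 and ALDH1A3 in P114, the value rests in part on a dim spot. Co-culture and single culture were paired within each array by the ratio. No paired analysis was possible between arrays because the replicate numbers only follow record order.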
